A study of Mus musculus with 3 samples.

Results

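The genes described here carry glucose from uptake to lactate export: 33 members, each found as 1 row by its symbol among the 27998 genes of the count tables. They are the glucose transporters Slc2a1 and Slc2a3, the enzymes and enzyme regulators of glycolysis, both lactate dehydrogenases, the mitochondrial pyruvate carrier, the pyruvate dehydrogenase complex with its kinases, and the lactate transporters Slc16a1 and Slc16a3. Their RNA was counted in nuclei from the whole hearts of mouse embryos at embryonic day 9.5. They fell into 3 genotypes, of which Ncx1+/+ is the wild type, Ncx1+/- the heterozygote and Ncx1-/- the homozygous mutant. Ncx1 is the alias of Slc8a1, which encodes a sodium-calcium exchanger of heart muscle cells and without which embryos have no regular heartbeat and no effective circulation. For each genotype 5 frozen hearts were pooled and 1 library was made, so embryos of a genotype cannot be separated, no value has a replicate, and no test between genotypes is possible. The strain and the construction of the mutant allele are not given in the sources used here. Values of the 3 libraries are given throughout in the order Ncx1+/+, Ncx1+/-, Ncx1-/-.

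Glucose enters a cell through facilitative transporters, is trapped as glucose-6-phosphate by hexokinase and is committed to breakdown by phosphofructokinase. The later steps of the pathway make ATP and pyruvate. Pyruvate then either becomes lactate, which leaves the cell through monocarboxylate transporters, or enters the mitochondrion and is turned into acetyl-CoA by pyruvate dehydrogenase, which the pyruvate dehydrogenase kinases switch off. Several steps have more than one isoform, encoded by separate genes, and tissues differ in the isoform they use. The early embryonic heart is known to rely on glycolysis before its mitochondria mature, and many of these genes are known targets of the hypoxia-inducible transcription factors.

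After filtering, 12464, 11267 and 11231 nuclei remained and were assigned by marker genes to classes. The cardiomyocyte class held 8816, 8149 and 8708 nuclei, and the endocardial class, which includes other endothelium, held 1782, 1653 and 1424. A mesenchyme-type class of the endocardial lineage held 507, 375 and 190 nuclei, the epicardial class 180, 28 and 220, and the erythroid class 503, 473 and 100. Mixed, unnamed and megakaryocyte clusters, 5.42%, 5.23% and 5.24% of kept nuclei, were left out. Slc8a1 stood at 16744, 8826 and 1283 CPM (a gene's counts per 1000000 counts of the class in that library) in cardiomyocytes, an order that fits the genotype labels. Libraries differed in ways that move with genotype. Malat1, a nuclear RNA, took 5.62%, 5.86% and 9.56% of cardiomyocyte counts and 2.27%, 2.42% and 3.96% of endocardial counts. Ribosomal protein genes took 0.892%, 1.11% and 1.57% of endocardial counts, and median UMIs (unique molecular identifiers, one per captured RNA molecule) per endocardial nucleus were 4577.5, 3874 and 3461.5. With Malat1, mitochondrial, ribosomal protein and haemoglobin genes left out of the totals, the median log2 ratio of Ncx1-/- to Ncx1+/+ over endocardial members was 1.39. With nuclei thinned to 2000 UMIs it was 1.48, and with the main settings 1.35. Beyond such reruns the part of these differences in the results below was not tested.

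RNA of cardiomyocytes was found in every other class. In endocardial nuclei the summed level of 12 cardiomyocyte markers was 11.9%, 13.1% and 15.5% of that in cardiomyocytes, with none at 0. Single markers ranged from 1.34% to 42.0% in Ncx1+/+ and from 1.57% to 45.4% in Ncx1-/-. The same sum was 36.2%, 55.8% and 34.6% in the epicardial class and 29.9%, 35.8% and 59.0% in the erythroid class. A member whose level in a class lies at or below this share of its cardiomyocyte level is read as background there. Single markers lay on both sides of this share, so it is no firm bound. In Ncx1+/+ endocardial nuclei Eno1 (24.7% of its cardiomyocyte level), Pdk1 (25.3%), Hk2 (25.5%) and Slc16a3 (29.9%), among others, lay within the range of single markers. How far these levels, and ratios over them, hold background was not tested beyond a subtraction at the summed share.

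Genes with 100 counts or more, summed over the libraries of a class, count as measured there. Standing apart, for a measured gene, means a CPM that differs from both other libraries in the same direction by 1.5-fold or more, with 1 outside the 95% counting interval of either ratio. In endocardial nuclei 17 of the 29 measured members stood apart as higher in Ncx1-/- and 0 as lower, where 6.75% of all measured genes were higher and 4.19% lower by this rule. The median log2 ratio of Ncx1-/- to Ncx1+/+ was 1.35 over the measured members and 0.10 over all 10593 measured genes. The mesenchyme-type class had 15 of 23 measured members higher and 0 lower, against 5.95% of all genes higher and 4.39% lower, with medians of 1.54 and 0.04. Cardiomyocytes had 6 of 33 higher and 0 lower, against 4.4% of all genes higher and 3.2% lower, with medians of 0.50 and -0.03. The summed level of all 33 genes was 1638, 2129 and 4712 CPM in endocardial nuclei and 4696, 5156 and 7105 CPM in cardiomyocytes.

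The split of all calls depended on the scaling. In endocardial nuclei 715 genes were higher and 444 lower in Ncx1-/- (61.7% higher) by class totals, and 470 and 565 (45.4% higher) with TMM factors. In the mesenchyme-type class 57.5% of calls were higher by class totals and 33.1% with TMM factors. In cardiomyocytes 57.9% of calls were higher, and 68.4% when Malat1, mitochondrial, ribosomal protein and haemoglobin genes were left out of the totals. TMM lowered the median of all genes by 0.11 (log2) in endocardial nuclei and by 0.14 in mesenchyme-type nuclei. The member counts stayed at 17 and 15 in both classes.

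**Figure D1:**
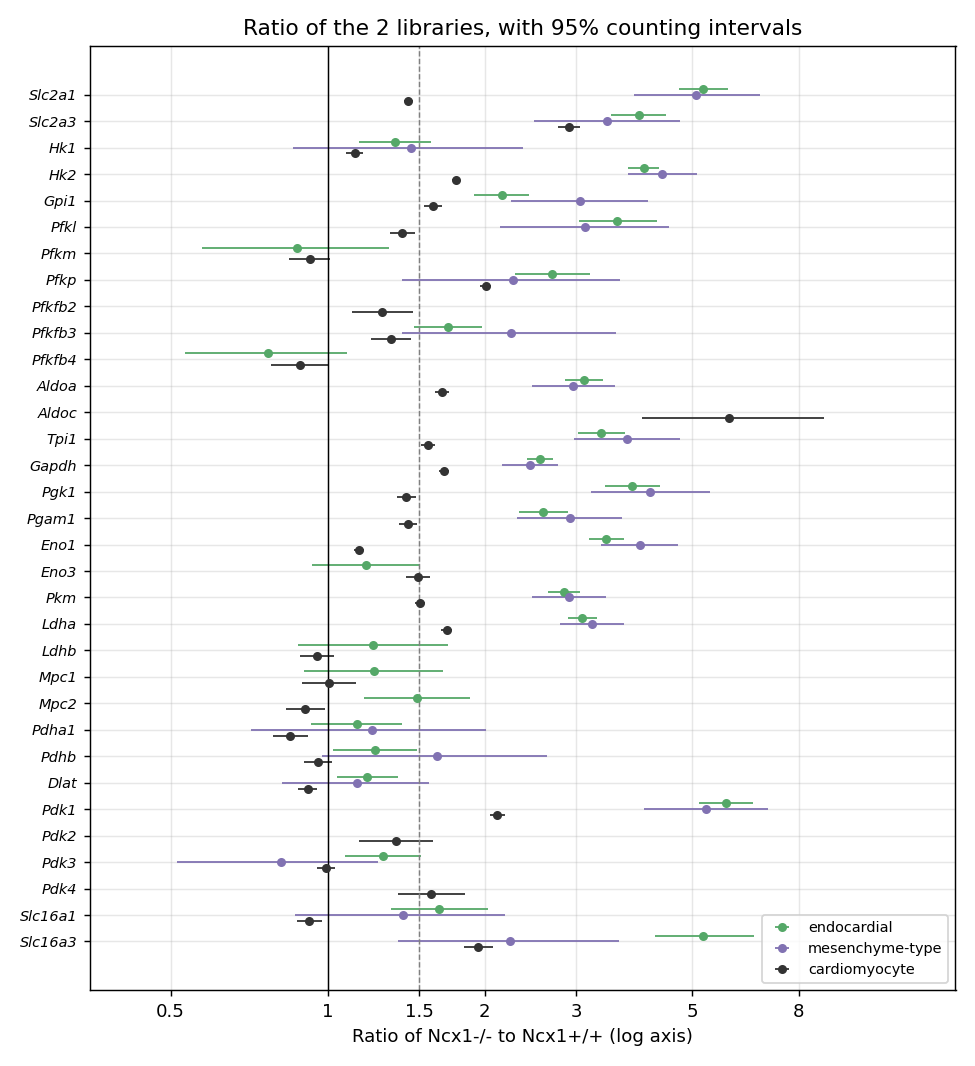
Ratio of the Ncx1-/- to the Ncx1+/+ library for every measured member, in pathway order from uptake (top) to lactate export (bottom). Points are ratios of class CPM on a log axis, bars are 95% counting intervals from 1 library each, the solid line marks 1 and the dashed line 1.5. Endocardial and mesenchyme-type points lie near each other, most of them to the right of the cardiomyocyte point. Slc2a1 has 5.26 in endocardial nuclei, over an Ncx1+/+ level read as background, and 1.43 in cardiomyocytes.

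Uptake is the first step. Slc2a1 (GLUT1; chr4:119108711-119137983, plus strand, build mm10) is the broadly expressed transporter and Slc2a3 (GLUT3; chr6:122727809-122801640, minus strand) a high-affinity one. Slc2a1 took 89.1% of the counts of both genes in Ncx1+/+ cardiomyocytes and led there per kb of exon (94.4%). In Ncx1+/+ endocardial nuclei Slc2a1 took 52.9% of the counts and 69.9% per kb of exon, but its level there is read as background. With cardiomyocyte RNA subtracted at the summed marker share, Slc2a1 was at -13.7 CPM and Slc2a3 at 36.5 CPM in these nuclei. Which of the pair leads in Ncx1+/+ endocardial nuclei therefore cannot be told. In endocardial nuclei Slc2a1 stood at 49.7, 81.9 and 261 CPM. Ncx1-/- lay above both other libraries, 5.26-fold (4.71 to 5.87) over Ncx1+/+, where brackets here and below hold the 95% counting interval. These levels were 9.30%, 15.2% and 34.2% of those in cardiomyocytes, so that the Ncx1+/+ level lies below the summed marker share and is read as background, and the ratio rests on it. Slc2a3 stood at 44.2, 56.2 and 175 CPM in endocardial nuclei, again with Ncx1-/- apart, 3.95-fold (3.50 to 4.46) over Ncx1+/+, and at 67.6%, 62.5% and 92.02% of the cardiomyocyte level.

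In cardiomyocytes the order of these transporters by ratio was the other way round. Slc2a1 stood at 535, 537 and 764 CPM, with Ncx1-/- 1.43-fold (1.40 to 1.46) over Ncx1+/+, short of the 1.5-fold rule. Slc2a3 stood at 65.4, 89.9 and 189.8 CPM, and Ncx1-/- stood apart, 2.90-fold (2.77 to 3.04) over Ncx1+/+. The share of Slc2a3 in the counts of both genes was 10.9% (10.5 to 11.3) in Ncx1+/+, 14.3% (13.8 to 14.8) in Ncx1+/- and 19.9% (19.5 to 20.3) in Ncx1-/- cardiomyocytes, 3 intervals that do not overlap.

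The second step has a pair of hexokinases. Hk1 (chr10:62268855-62379908, minus strand) is the housekeeping hexokinase and Hk2 (chr6:82725025-82774454, minus strand) the regulated form of muscle and embryonic tissue; both trap glucose inside the cell. Hk2 led per kb of exon in Ncx1+/+ cardiomyocytes (83.8% of the pair) and in Ncx1+/+ endocardial nuclei (82.6%). In endocardial nuclei Hk2 stood at 131, 176 and 528 CPM, with Ncx1-/- apart, 4.04-fold (3.77 to 4.33) over Ncx1+/+. Hk1 stood at 39.5, 41.5 and 53.2 CPM there and did not stand apart. The share of Hk2 in the counts of both genes was 76.8% (74.6 to 78.96) in Ncx1+/+ and 90.8% (89.8 to 91.8) in Ncx1-/- endocardial nuclei.

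Cardiomyocytes had the same pair of outcomes. Hk2 stood at 513, 521 and 904 CPM, with Ncx1-/- apart, 1.76-fold (1.73 to 1.80) over Ncx1+/+. Hk1 stood at 142, 135 and 160.1 CPM, a ratio of 1.13. Hk2 was the 1 member that passed the rule as higher in Ncx1-/- in all 5 classes, but its erythroid level in Ncx1-/-, at 36.4% of the cardiomyocyte level, lies below the marker share of 59.0% and is read as background.

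The next enzymes lead to the committed step. Gpi1, glucose-6-phosphate isomerase, stood at 53.7, 63.6 and 116 CPM in endocardial nuclei, with Ncx1-/- apart, 2.16-fold (1.91 to 2.44) over Ncx1+/+. The cardiomyocyte level was 110.1, 124 and 175 CPM, where the ratio to Ncx1+/+ was 1.59 and that to Ncx1+/- 1.42, so that it did not stand apart. The 3 phosphofructokinases, named for liver (Pfkl), muscle (Pfkm) and platelet (Pfkp), catalyse the committed step. Cardiomyocytes of Ncx1+/+ used mainly Pfkp, with 74.7% of the counts, 53.1% per kb of exon and 53.2% per kb of gene span.

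Pfkp stood at 280.1, 327 and 563 CPM in cardiomyocytes, with Ncx1-/- apart, 2.01-fold (1.96 to 2.06) over Ncx1+/+. Pfkl stood at 66.2, 69.1 and 92.1 CPM and Pfkm at 28.6, 25.5 and 26.4 CPM, and neither stood apart. In endocardial nuclei Pfkl stood at 22.7, 34.7 and 81.6 CPM, with Ncx1-/- apart, 3.60-fold (3.03 to 4.28) over Ncx1+/+. Pfkl also led there on both length scales, with 43.04% per kb of exon in Ncx1+/+ and 61.6% in Ncx1-/-. Pfkp passed the rule in endocardial nuclei too, at 27.3, 37.3 and 73.5 CPM, but these levels were 9.74%, 11.4% and 13.1% of those in cardiomyocytes, below the marker share in each library, and are read as background. Pfkm stood at 8.23, 6.80 and 7.19 CPM in endocardial nuclei and did not stand apart. With cardiomyocyte RNA subtracted at the marker share, 16 members stood apart in endocardial nuclei, and Pfkp was not among them.

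The Pfkfb enzymes make and remove fructose-2,6-bisphosphate, an activator of phosphofructokinase. Pfkfb3 (chr2:11471433-11554077, minus strand), the form known for endothelium, stood at 39.5, 38.7 and 67.2 CPM in endocardial nuclei, with Ncx1-/- apart, 1.70-fold (1.46 to 1.98) over Ncx1+/+. It was the 1 member with a higher CPM in endocardial nuclei than in cardiomyocytes in all 3 libraries; its cardiomyocyte level was 25.6, 27.3 and 33.9 CPM and did not stand apart. Pfkfb4 stood at 11.8, 9.90 and 9.03 CPM in endocardial nuclei and at 14.9, 15.5 and 13.2 CPM in cardiomyocytes, with no library apart in either. Pfkfb2 stood at 11.3, 11.3 and 14.4 CPM in cardiomyocytes, with none apart, and was below the count minimum in endocardial nuclei.

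Below the committed step each reaction has 1 dominant gene here, and in endocardial nuclei all 7 of these stood apart as higher in Ncx1-/-. Aldoa, which splits fructose-1,6-bisphosphate, stood at 102, 121 and 315 CPM, a ratio of 3.10-fold (2.85 to 3.37) to Ncx1+/+. Tpi1, triosephosphate isomerase, stood at 62.4, 90.5 and 209 CPM, a ratio of 3.35-fold (3.02 to 3.72). Gapdh, which makes the first NADH of the pathway, stood at 226, 292 and 576 CPM, a ratio of 2.55-fold (2.41 to 2.71). In each of these genes Ncx1+/- lay between the other libraries, nearer to Ncx1+/+.

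Pgk1, which makes the first ATP, stood at 45.6, 62.4 and 175 CPM, with a ratio of 3.84-fold (3.41 to 4.33). Pgam1, phosphoglycerate mutase, stood at 62.9, 82.9 and 163 CPM, with a ratio of 2.59-fold (2.33 to 2.89). Eno1, the widespread enolase, stood at 113, 159.9 and 387 CPM, with a ratio of 3.42-fold (3.17 to 3.69), and of 5.19 with cardiomyocyte RNA subtracted. The muscle enolase Eno3 did not share this pattern. It stood at 19.4, 19.4 and 23.03 CPM, and the share of Eno1 in the counts of both enolases was 85.4% (83.2 to 87.4) in Ncx1+/+ and 94.4% (93.3 to 95.3) in Ncx1-/-. Pkm, pyruvate kinase, closed the series at 138, 182 and 391 CPM, with a ratio of 2.84-fold (2.64 to 3.05).

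In cardiomyocytes none of these 7 stood apart with the main settings, though Aldoa passed the rule in 6 of the 14 settings run. Levels were 193, 214 and 319 CPM for Aldoa, and the ratio to Ncx1+/+ was 1.66. Tpi1 stood at 179, 223 and 279.5 CPM, Gapdh at 369, 466 and 616 CPM and Pgk1 at 104, 104 and 147 CPM. All of these were highest in Ncx1-/-, but less than 1.5-fold above Ncx1+/-. Pgam1 stood at 112, 140.2 and 160.0 CPM, Eno1 at 459, 484 and 528 CPM and Pkm at 378, 427 and 569 CPM. Eno1 had the smallest ratio of the 7, 1.15-fold (1.13 to 1.17), beside 3.42 in endocardial nuclei. Eno3 stood at 64.9, 69.8 and 96.9 CPM, with Ncx1-/- 1.49 times Ncx1+/+. Aldoc, the brain-type aldolase, was scarce at 0.879, 1.77 and 5.18 CPM, yet Ncx1-/- stood apart, 5.90-fold (4.01 to 8.94) over Ncx1+/+, and Aldoc was below the count minimum in endocardial nuclei. Aldoa kept at least 98.4% of aldolase counts in every cardiomyocyte library.

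**Figure D2:**
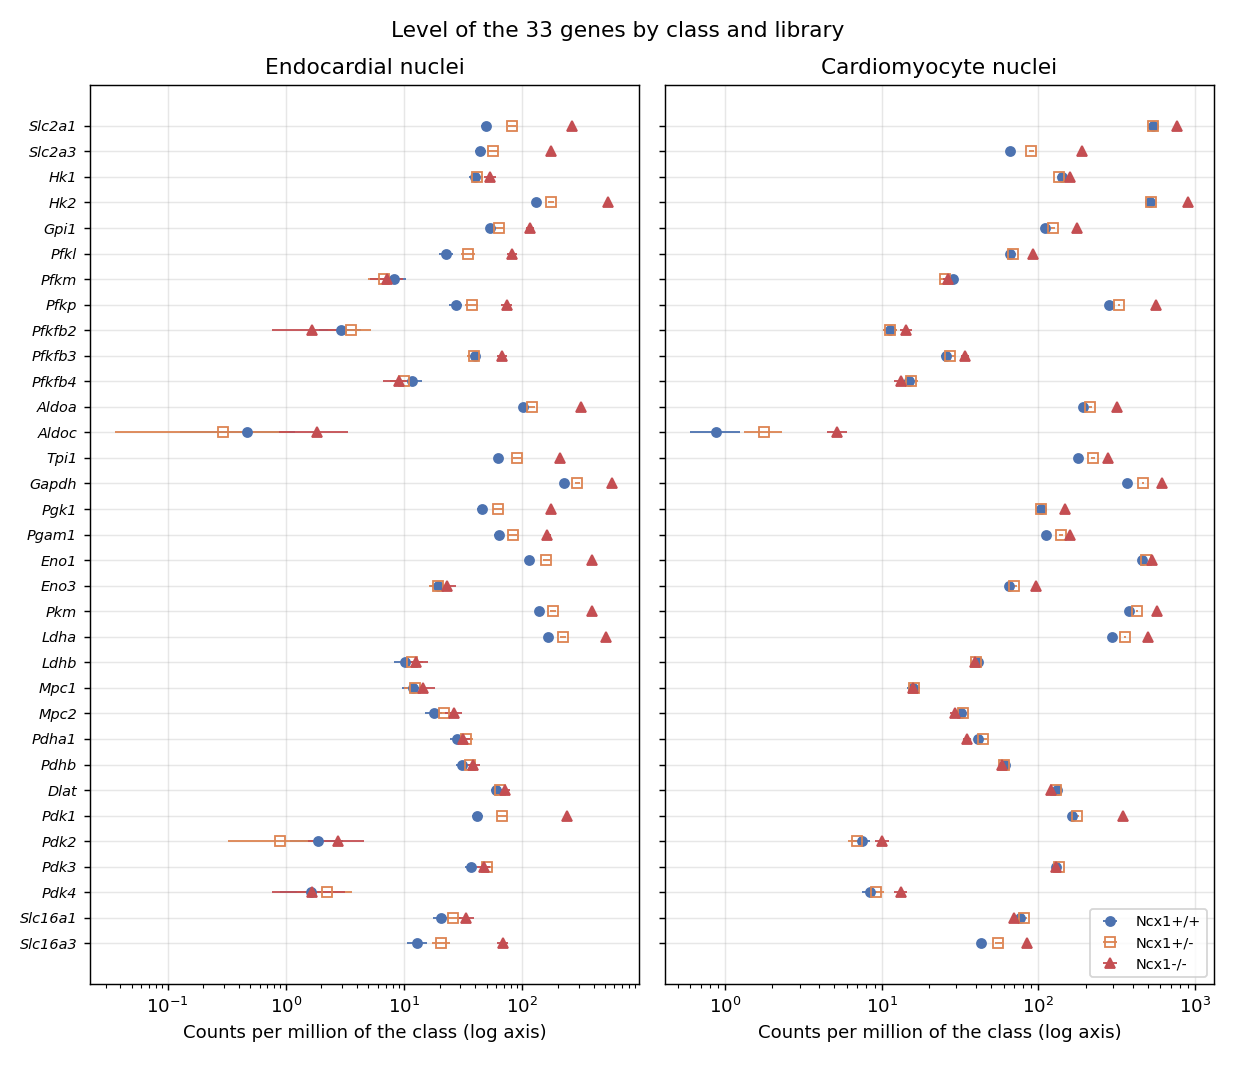
Level of each of the 33 genes in endocardial (left) and cardiomyocyte nuclei (right), in CPM of the class on a log axis, with 1 symbol for each library and 95% Poisson counting intervals as bars. In endocardial nuclei the Ncx1-/- triangle is set off to the right from Slc2a1 to Ldha for most genes and lies among the other symbols for Ldhb, Mpc1, Pdha1, Pdhb and Dlat; in cardiomyocytes the symbols lie closer together.

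The last cytosolic step is shared by a pair of lactate dehydrogenases. Ldha favours the making of lactate from pyruvate, and Ldhb the reverse reaction. Slc16a3 (MCT4) is known as the exporter of strongly glycolytic cells and Slc16a1 (MCT1) as a transporter that works in both directions. In each pair 1 gene stood apart in Ncx1-/- endocardial nuclei and the other did not, which is why the 250 bases before the RefSeq transcription start of all 4 are shown. RefSeq promoters of GRCm38.p6, the build of mm10, were matched by symbol for 32 of the 33 members, all but Slc2a3, and for Ldha the first of 2 listed starts is shown. Capitals mark ACGTG and GCGTG on either strand (CACGT and CACGC when read on this one), the core letters to which hypoxia-inducible factors are known to bind; matches can overlap, as in CACGTG.
Ldha (chr7:46845554-46845803, plus strand): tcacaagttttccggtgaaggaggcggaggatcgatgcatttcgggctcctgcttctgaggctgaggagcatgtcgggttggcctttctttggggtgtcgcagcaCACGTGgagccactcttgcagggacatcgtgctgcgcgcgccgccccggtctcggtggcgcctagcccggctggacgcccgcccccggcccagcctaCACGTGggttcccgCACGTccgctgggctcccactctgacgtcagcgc
Ldhb (chr6:142507958-142508207, minus strand): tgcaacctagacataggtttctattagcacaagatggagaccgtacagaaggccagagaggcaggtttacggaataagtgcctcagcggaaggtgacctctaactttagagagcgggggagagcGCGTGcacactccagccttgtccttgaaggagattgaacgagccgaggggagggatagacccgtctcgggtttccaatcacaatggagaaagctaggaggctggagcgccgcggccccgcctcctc
Slc16a3 (chr11:120948817-120949066, plus strand): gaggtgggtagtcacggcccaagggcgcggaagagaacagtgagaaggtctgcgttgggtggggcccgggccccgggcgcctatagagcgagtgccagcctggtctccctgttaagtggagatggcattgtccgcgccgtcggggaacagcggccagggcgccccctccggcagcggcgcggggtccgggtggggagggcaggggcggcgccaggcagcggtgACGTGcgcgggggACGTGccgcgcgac
Slc16a1 (chr3:104638414-104638663, plus strand): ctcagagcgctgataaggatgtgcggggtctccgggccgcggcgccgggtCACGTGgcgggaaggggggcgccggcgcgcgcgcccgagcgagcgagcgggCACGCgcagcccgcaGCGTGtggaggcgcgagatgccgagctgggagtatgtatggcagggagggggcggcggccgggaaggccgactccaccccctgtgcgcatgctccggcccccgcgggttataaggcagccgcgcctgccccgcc

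In these windows Ldha has 3 stretches in capitals, Ldhb 1, Slc16a3 2 and Slc16a1 3. Over the full 300 bases of the first listed promoter, ACGTG was present in 15 of the 32 members (46.9%), against 19.7% of 27025 genes and 27.0% of the 8061 genes measured in endocardial nuclei that have a promoter. GCGTG was present in 20 of 32 (62.5%), against 32.5% and 54.0%. Either was present in 12 of the 16 members that stood apart in Ncx1-/- endocardial nuclei (75.0%) and in 10 of the 12 measured ones that did not (83.3%), against 65.9% of the genes measured in endocardial nuclei and 43.8% of all genes. Counted by itself, ACGTG was present in 8 of the 16 (50%) and in 4 of the 12 (33.3%), and GCGTG in 8 and 9 of these. Members with these letters were thus found both among those that stood apart and among the rest.

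Ldha stood at 165, 221 and 509 CPM in endocardial nuclei, with Ncx1-/- apart, 3.08-fold (2.88 to 3.28) over Ncx1+/+. Ldhb stood at 10.2, 11.7 and 12.5 CPM and did not stand apart. Ldha took 94.2% of the pair's counts in Ncx1+/+ and 97.6% in Ncx1-/-. In cardiomyocytes Ldha stood at 294, 356 and 498 CPM, short of the rule against Ncx1+/- (1.40-fold), and Ldhb at 41.4, 40.2 and 39.5 CPM. Ldha still led per kb of exon in Ncx1+/+ cardiomyocytes, with 77.1% of the pair.

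Slc16a3 stood at 12.9, 20.5 and 67.98 CPM in endocardial nuclei, with Ncx1-/- apart, 5.26-fold (4.24 to 6.56) over Ncx1+/+, and at 43.3, 55.6 and 84.3 CPM in cardiomyocytes, apart again, 1.95-fold (1.83 to 2.07). Slc16a1 stood at 20.6, 26.2 and 33.7 CPM in endocardial nuclei, 1.64-fold (1.32 to 2.03) over Ncx1+/+ but only 1.29-fold over Ncx1+/-. In cardiomyocytes Slc16a1 stood at 75.7, 81.2 and 69.8 CPM, lowest in Ncx1-/-. The share of Slc16a3 in the counts of both transporters was 38.6% (32.9 to 44.5) in Ncx1+/+ and 66.8% (62.7 to 70.8) in Ncx1-/- endocardial nuclei. In cardiomyocytes it was 36.4% (34.9 to 37.9) and 54.7% (53.4 to 56.1). Which of the pair leads in Ncx1+/+ endocardial nuclei cannot be told, since Slc16a3 has 34.3% per kb of exon and 50.1% per kb of gene span.

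**Figure D3:**
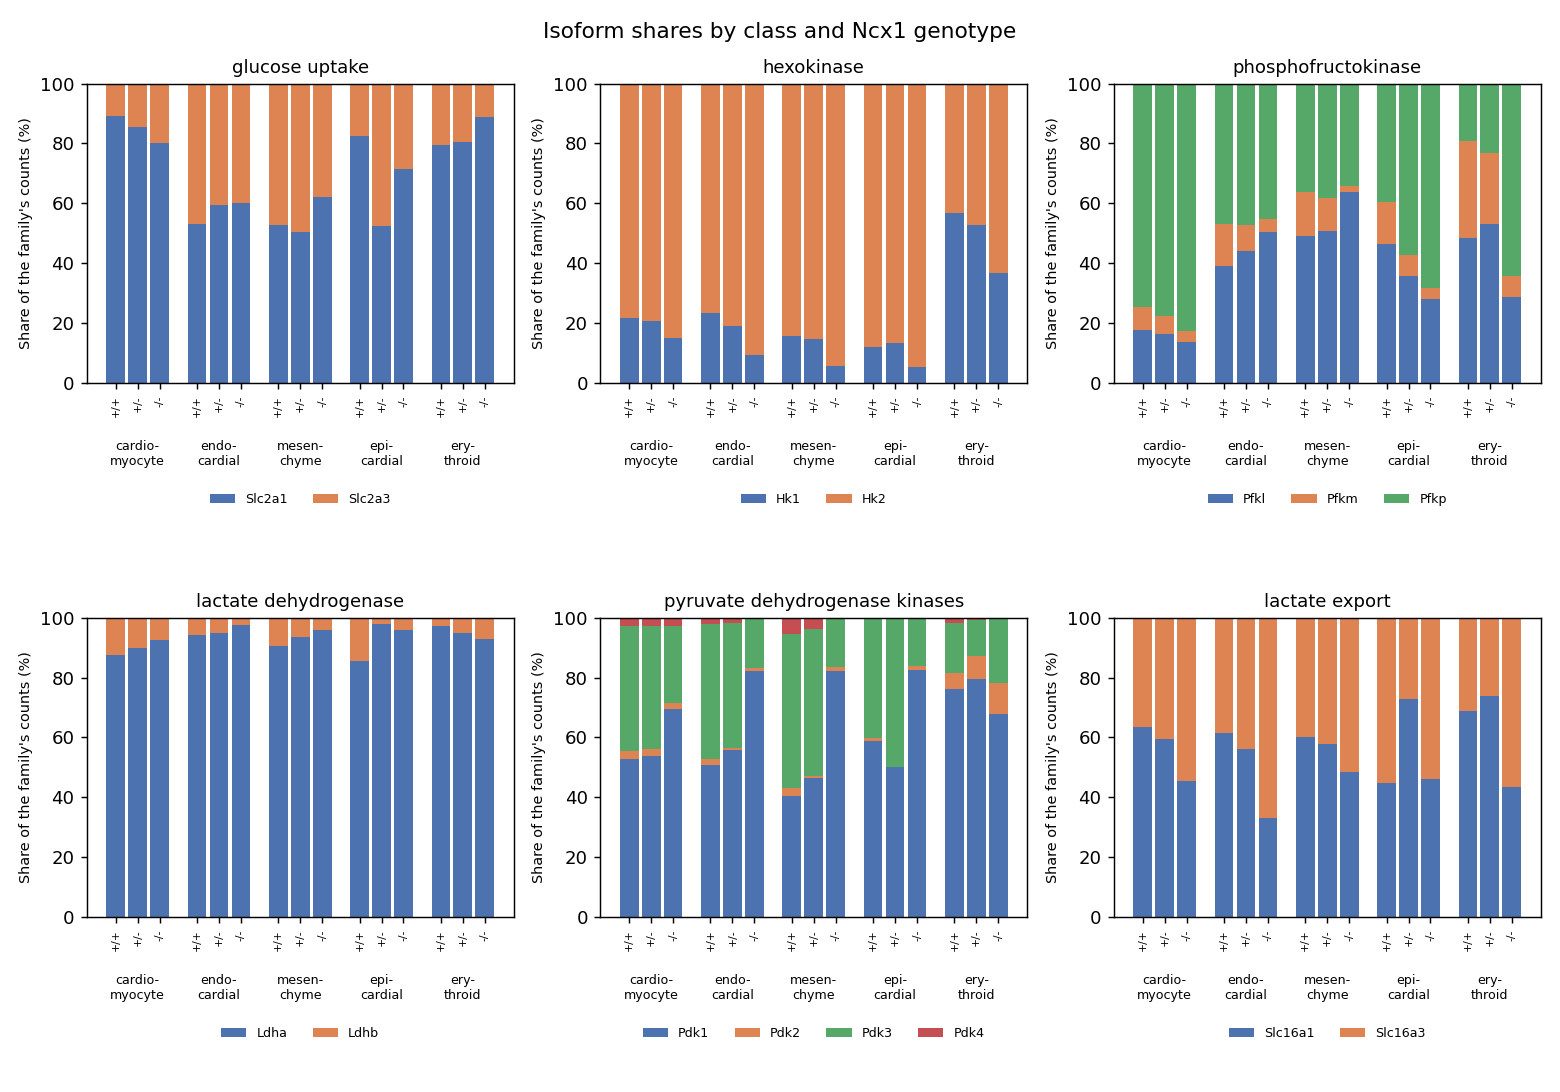
Share of each isoform in the summed counts of its family, in percent, for 6 families, with 1 bar for each class and library; shares are of raw counts, not corrected for gene length, and epicardial Ncx1+/- bars rest on 28 nuclei. In endocardial nuclei the Slc16a3 part is 38.6% in Ncx1+/+ and 66.8% in Ncx1-/-, and erythroid nuclei differ from the others in their Hk1 part, 56.7% in Ncx1+/+.

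Pyruvate that is not made into lactate enters the mitochondrion. Mpc1 and Mpc2 together form the carrier of the inner mitochondrial membrane, and neither stood apart. Mpc1 stood at 11.9, 12.4 and 14.6 CPM in endocardial nuclei and at 15.8, 16.1 and 15.9 CPM in cardiomyocytes. Mpc2 stood at 17.8, 21.7 and 26.3 CPM and at 32.2, 32.9 and 29.1 CPM. Pyruvate dehydrogenase is built from the E1 subunits Pdha1 and Pdhb and the E2 core Dlat, and none of these stood apart either. In endocardial nuclei Pdha1 stood at 27.9, 33.6 and 31.7 CPM, Pdhb at 31.05, 35.9 and 38.3 CPM and Dlat at 59.4, 65.04 and 70.7 CPM. Their cardiomyocyte levels were 41.2, 44.5 and 34.9 CPM, 60.9, 59.9 and 58.4 CPM and 131, 129 and 119.6 CPM. The ratios of Ncx1-/- to Ncx1+/+ ran from 1.14 to 1.48 over these 5 genes in endocardial nuclei and from 0.849 to 1.01 in cardiomyocytes.

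The kinases of pyruvate dehydrogenase showed the contrast between isoforms again. Pdk1 (chr2:71873224-71903858, plus strand) stood at 41.5, 67.4 and 241 CPM in endocardial nuclei, with Ncx1-/- apart, 5.80-fold (5.15 to 6.54) over Ncx1+/+. This ratio was 3.35 with equal weight for each of the 4 sub-clusters that hold at least 50 nuclei in every library, and 8.46 with cardiomyocyte RNA subtracted. Its cardiomyocyte level was 164, 177 and 347 CPM, with Ncx1-/- apart again, 2.12-fold (2.05 to 2.18). Pdk3 did not stand apart, at 36.9, 50.6 and 47.2 CPM in endocardial nuclei and 129.8, 135 and 129 CPM in cardiomyocytes. The share of Pdk1 in the counts of the 4 kinases was 50.6% (46.9 to 54.4) in Ncx1+/+, 55.7% (52.2 to 59.1) in Ncx1+/- and 82.3% (80.4 to 84.2) in Ncx1-/- endocardial nuclei. Whether Pdk1 or Pdk3 leads in Ncx1+/+ depends on the scale: Pdk1 had 25.6% per kb of exon and 62.9% per kb of gene span. In Ncx1-/- endocardial nuclei Pdk1 led on both, with 61.02% and 88.6%. Pdk2 and Pdk4 were scarce. In cardiomyocytes they stood at 7.46, 6.98 and 10.1 CPM and 8.36, 9.25 and 13.2 CPM, with no library apart, and in endocardial nuclei both were below the count minimum.

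Endocardial nuclei were next set against cardiomyocytes. Over the 29 members measured in endocardial nuclei, the median level as a percentage of that in cardiomyocytes was 36.4%, 50.2% and 69.4%, while over 10410 genes measured in both classes it was 102%, 103% and 114%. Single members exceeded the cardiomyocyte level in 1, 1 and 4 cases. The counting interval of the ratio to Ncx1+/+ lay wholly above that in cardiomyocytes for 23 of the 29 members, overlapped it for 6 and lay below it for 0. Over all genes measured in both classes it lay above for 25.3% and below for 9.20%. Each such interval compares 1 library with 1 other and covers counting error, not the spread between embryos.

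In mesenchyme-type nuclei the 15 members that stood apart were all among the 17 of the endocardial class. Hk2 stood at 124, 145 and 542 CPM, 4.38-fold (3.76 to 5.10) over Ncx1+/+. Pdk1 stood at 36.01, 45.4 and 191 CPM, 5.31-fold (4.04 to 6.997). Ldha stood at 162, 191 and 519.6 CPM, 3.21-fold (2.79 to 3.71). In each, Ncx1-/- lay above both other libraries and those lay close to each other. The transporters had the same order, with Slc2a1 at 35.6, 52.7 and 181 CPM, Slc2a3 at 32.01, 51.5 and 110.0 CPM and Slc16a3 at 18.4, 19.4 and 41.2 CPM. Upper-pathway enzymes followed, with Gpi1 at 38.4, 48.4 and 117 CPM, Pfkl at 25.6, 36.3 and 79.7 CPM and Aldoa at 104, 122 and 307 CPM. Of the later enzymes Tpi1 stood at 56.4, 76.3 and 212 CPM, Gapdh at 246, 281 and 602 CPM and Pgk1 at 43.6, 42.99 and 181 CPM. The last of the 15 were Pgam1 at 66.02, 81.7 and 192 CPM, Eno1 at 103, 132 and 409.7 CPM and Pkm at 129, 153 and 375 CPM, again highest in Ncx1-/-. Pfkp and Pfkfb3 were measured and did not stand apart, at 18.8, 27.2 and 42.6 CPM and 19.6, 29.7 and 43.99 CPM. Endothelial markers were at 48.3%, 55.4% and 61.4% of their endocardial level in this class, and Slc2a1 was at 6.66%, 9.81% and 23.8% of its cardiomyocyte level, where the summed marker share was 12.04%, 12.6% and 16.3%; its Ncx1+/+ and Ncx1+/- levels and those of Pfkp in all 3 libraries, at 6.72%, 8.34% and 7.57%, are read as background.

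In the epicardial class, where Ncx1+/- rests on 28 nuclei, 5 of 18 measured members stood apart as higher in Ncx1-/- and 0 as lower, against 1.09% of all measured genes higher and 1.41% lower. Pdk1 stood at 92.97, 79.9 and 383 CPM, 4.12-fold (3.09 to 5.58) over Ncx1+/+, with its Ncx1+/- level, at 45.2% of the cardiomyocyte level, below the marker share and read as background. Slc2a1 stood at 186, 126 and 472 CPM, 2.54-fold (2.05 to 3.16). Slc2a1 was at 34.8%, 23.4% and 61.7% of its cardiomyocyte level, below the marker share in Ncx1+/+ and Ncx1+/-, and these levels are read as background. Hk2 stood at 473, 445 and 790.5 CPM and Eno1 at 387, 285 and 619 CPM, both with Ncx1-/- highest. Pfkp stood at 45.7, 91.3 and 206 CPM, which is 16.3%, 27.9% and 36.6% of the cardiomyocyte level and at or below the marker share in Ncx1+/+ and Ncx1+/-.

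Erythroid nuclei had other isoform shares. Hk1 took 56.7% (51.6 to 61.8) of hexokinase counts in Ncx1+/+, against 21.7% in cardiomyocytes, and stood at 208, 196 and 192 CPM. Hk1 had 47.8% per kb of exon and 36.8% per kb of gene span in Ncx1+/+. Hk2 was there at 30.9% of its cardiomyocyte level, close to the marker share of 29.9%, so which of the pair leads per length cannot be told. In Ncx1-/- Hk1 took 36.8% (28.4 to 45.9) of the counts, but Hk2 in that library is read as background. Pfkfb4 (chr9:108991778-109032228, plus strand) took 95.9% (93.4 to 97.6) of Pfkfb counts, against 28.8% in cardiomyocytes. It stood at 361, 351 and 225 CPM, where Ncx1-/- was 1.60-fold (1.20 to 2.17) below Ncx1+/+, the 1 case of a member standing apart as lower in Ncx1-/-. Pfkfb4 was at 2421% of its cardiomyocyte level in Ncx1+/+. Cardiomyocyte markers in erythroid nuclei were at 29.9% of their cardiomyocyte level in Ncx1+/+ and 59.0% in Ncx1-/-. The part of this in the Pfkfb4 difference was not tested. By this rule 6.69% of all measured genes were lower in the erythroid class. Of phosphofructokinase counts in Ncx1+/+, Pfkl took 48.4%, Pfkm 32.5% and Pfkp 19.1%. Pfkp was at 10.3% of its cardiomyocyte level there and is read as background. Which of Pfkl and Pfkm leads depends on the scale: Pfkm had 52.8% and Pfkl 39.4% per kb of exon, and Pfkl had 65.7% per kb of gene span. Pdk1 took 76.2% of kinase counts and stood at 198, 195 and 246 CPM, with no library apart.

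Of 22 measured members 5 stood apart as higher in Ncx1-/- erythroid nuclei, against 5.2% of all measured genes. Cardiomyocyte markers were at 59.0% of their cardiomyocyte level in this library of 100 erythroid nuclei, and 3 of the 5 lie at or below that share there. Hk2, at 158, 175 and 329 CPM, was at 30.9%, 33.7% and 36.4% of the cardiomyocyte level, Pfkp, at 28.96, 33.8 and 188 CPM, at 10.3%, 10.3% and 33.3%, and Pkm, at 158, 175 and 317 CPM, at 41.9%, 41.1% and 55.7%. In Ncx1-/- these 3 are read as background, as are Hk2 in Ncx1+/- and Pfkp in all 3 libraries. Eno1 stood at 169, 209 and 396 CPM and Eno3 at 42.5, 61.02 and 104 CPM, which is 36.8%, 43.2% and 75.1% and 65.5%, 87.4% and 108% of the cardiomyocyte level.

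Ratios were also taken within clusters. Nuclei of the genotypes were spread unevenly over the endocardial sub-clusters. One, led by Grin2c, Slc26a10 and Kcne3, held 15, 130 and 650 nuclei, and another, led by Fam155a and Ccser1, held 387, 267 and 9. Without the first, 17 members still stood apart; Pdk1 was then at 41.3, 62.7 and 269 CPM and Slc2a1 at 49.7, 71.96 and 275 CPM. In the 4 sub-clusters with at least 50 nuclei in every library, 13 of 14, 4 of 17, 13 of 15 and 12 of 12 measured members were higher in Ncx1-/-, against 2.38%, 1.26%, 2.28% and 4.60% of all genes measured there. Over these sub-clusters the ratio to Ncx1+/+ ran from 2.58 to 5.84 for Hk2, from 2.40 to 3.27 for Eno1, from 1.84 to 3.54 for Ldha and from 2.20 to 5.28 for Pdk1. Both mesenchyme-type sub-clusters had 13 of 14 and 14 of 16 measured members higher, against 6.11% and 4.52%. In all these sub-clusters the other members fell below the count minimum. That minimum is summed over the libraries, so high counts in Ncx1-/- help a member to be measured. The fractions therefore do not describe the whole list.

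The 9 cardiomyocyte clusters each held at least 393 nuclei per library, and members higher in Ncx1-/- numbered from 3 of 31 to 14 of 32. Of all genes measured in a cluster, 1.92% to 4.45% were higher, and 4.36% in the cluster with 14, led by Negr1, Dcc and Stxbp5l. In 1 cluster, led by Bmpr1b, Dcc and Pln, 1 member was lower in Ncx1-/-: Mpc2, at 29.3, 30.2 and 18.8 CPM, where 1.25% of all genes were lower. Over the 9 clusters the ratio ran from 2.28 to 5.49 for Slc2a3, from 1.40 to 2.35 for Hk2, from 1.52 to 2.84 for Pfkp, from 1.73 to 2.63 for Pdk1 and from 1.03 to 1.33 for Eno1. All 5 were above 1 in each cluster. Other members were not: Dlat ran from 0.781 to 0.999 and Pdha1 from 0.717 to 1.01.

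**Figure D4:**
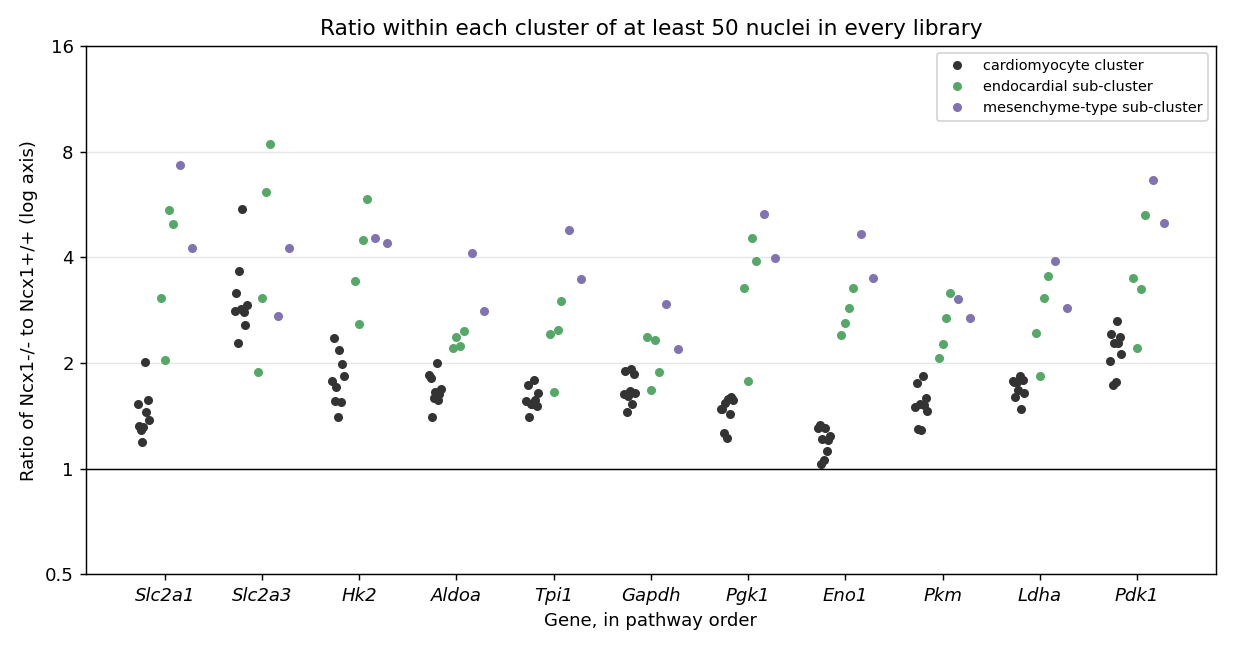
Ratio of Ncx1-/- to Ncx1+/+ (log axis) for 11 members within each cluster that held at least 50 nuclei in every library and 100 counts of the gene; 1 point is 1 cluster, with no error bar. The 11 were taken from the members that stood apart in the endocardial class, so the plot does not show the list as a whole. All points shown lie above 1, which does not hold for every member left out. For Eno1 the cardiomyocyte clusters run from 1.03 to 1.33 and the endocardial sub-clusters from 2.40 to 3.27.

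In endocardial nuclei and cardiomyocytes, heterozygous hearts lay between the others for most members. In no class did a member stand apart in Ncx1+/-, higher or lower. Of all measured genes 0.123% were higher and 0.132% lower in the endocardial class, 0.24% and 0.134% in cardiomyocytes, 0.0722% and 0.217% in mesenchyme-type, 2.53% and 2.39% in epicardial and 0.334% and 0.836% in erythroid nuclei. The levels ran upwards from Ncx1+/+ over Ncx1+/- to Ncx1-/- for 23 of 29 measured members in endocardial nuclei (79.3%), against 35.8% of all measured genes. In cardiomyocytes this order held for 21 of 33 (63.6%), against 25.0%. The median log2 ratio of Ncx1+/- to Ncx1+/+ was 0.35 over the endocardial members and 0.01 over all genes, and 0.29 over the members without the sub-cluster led by Grin2c. Pdk1 in endocardial nuclei was 1.62-fold (1.41 to 1.87) over Ncx1+/+ in Ncx1+/-, Slc2a1 1.65-fold (1.45 to 1.87) and Hk2 1.35-fold (1.24 to 1.46). For Slc2a1 the Ncx1+/+ level is read as background.

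A list of 65 further genes of glucose, glycogen, pyruvate and lactate handling had 36 measured in endocardial nuclei. Of these, 4 stood apart as higher in Ncx1-/- and 1 as lower, with a median log2 ratio of 0.31. Of all genes measured there 6.75% were higher and 4.19% lower, with a median of 0.10. Bsg, the chaperone that brings Slc16a1 and Slc16a3 to the membrane, stood at 71.3, 113 and 246 CPM, 3.45-fold (3.13 to 3.81) over Ncx1+/+. Pgm2, a phosphoglucose mutase, stood at 35.9, 51.00 and 118 CPM, 3.30-fold (2.88 to 3.80). The glycogen phosphorylase Pygl stood at 6.35, 5.47 and 16.95 CPM and the pentose phosphate enzyme Pgls at 24.3, 27.6 and 43.1 CPM. Me1, the cytosolic malic enzyme, was the lower one, at 29.99, 25.4 and 10.7 CPM, with Ncx1-/- 2.81-fold (2.10 to 3.80) below Ncx1+/+.

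In cardiomyocytes 51 of the 65 were measured, 7 higher and 2 lower, with a median log2 ratio of -0.03. Of all genes measured there 4.4% were higher and 3.2% lower, with a median of -0.03. Bsg stood at 122, 176 and 315 CPM, Pgm2 at 137, 151 and 255 CPM and Pygl at 31.9, 35.7 and 68.9 CPM, each with Ncx1-/- apart. Also among the higher ones, at low levels, were the insulin-regulated transporter Slc2a4 (4.20, 4.27 and 7.69 CPM), the neuronal enolase Eno2 (6.78, 7.68 and 14.7 CPM) and the alanine transaminase Gpt2 (3.06, 4.67 and 9.99 CPM). Slc16a7, another monocarboxylate transporter, and Rpia, of the pentose phosphate pathway, were lower, at 8.65, 8.45 and 5.59 CPM and 9.41, 9.18 and 5.88 CPM. Of 19 citric acid cycle genes, which follow pyruvate dehydrogenase, all were measured in both classes and 0 stood apart in Ncx1-/- in either, with median log2 ratios of 0.17 in endocardial nuclei and -0.10 in cardiomyocytes.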

How the data were processed

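The authors deposited whole-number UMI counts per gene and barcode for 3 libraries, not normalised. Per the submitters' processing notes these came from Cell Ranger 6.1.0 and mm10; per the file headers the tables were written by version 9.0.0. Whether introns were counted is not stated. Tables held 59898298, 49022310 and 52985283 counts in 13805, 12563 and 12525 barcodes, of which 97, 87 and 104 (0.703%, 0.693% and 0.830%) had a sequence also found in another library. Nuclei with at least 500 genes and at most 5% mitochondrial counts were kept. Scrublet scored doublets per library and the top 8% were removed, because its own threshold called 0 in Ncx1-/- and 10.3% and 11.0% in the others. Clustering used scanpy 1.11.5 (2000 variable genes without the members, 30 components, 15 neighbours, Leiden resolution 1.0). Clusters were named from marker lists, and names rebuilt here may differ from the study's. A cluster stayed unnamed where 2 marker lists were within 0.15 of each other in the share detected, where its median UMIs were under 0.35 of the median, or where its median doublet score was over 0.1. Endocardial sub-clusters with at least 8 markers of another class, or 3 of its leading genes, were set aside as mixed.

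Counts were summed per class and library and scaled to CPM. Intervals at 95% are exact Poisson, exact conditional binomial for ratios and Clopper-Pearson for shares; they cover counting error only. With 1 library per genotype no test was run. The rule for standing apart was run on simulated counts, drawn with Poisson error from 1 pooled profile of the class. In the endocardial setting it recovered 100% of 50 genes changed 2-fold among 10593, and 20.0% at 1.5-fold. Unchanged genes were called higher there in 0.0385% and lower in 0.144%. In the cardiomyocyte setting 10% were recovered at 1.5-fold. The simulation holds no spread between embryos or libraries. Its rates therefore cover counting error only and give no rate of false calls between genotypes. Coordinates and lengths come from GENCODE M21 (mm10), which matched 27645 of 27998 identifiers. Of the members, 13 overlap a gene on the other strand, among them Gapdh, Tpi1, Hk1, Pfkp and Pdha1, and 2, Pfkm and Pfkfb2, overlap one on the same strand; strand use in counting is not stated. Processed pseudogenes near-identical to some members, such as Gapdh, may take part of their reads; this was not tested.

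Members and gene lists were chosen with earlier results of these data known. Values are named for every member measured in endocardial or cardiomyocyte nuclei, for members apart or differing in isoform order elsewhere, and for other pathway genes that stood apart, of which 1 is not reported here. Alternatives were TMM (edgeR 4.0.16) and median-of-ratios (DESeq2 1.42.0) factors, other totals, fold, count and gene minimums, doublets, resolution, equal weight per nucleus, and nuclei thinned to 2000 UMIs.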

Additional observations from a re-analysis of the deposited data

Results flagged for a closer look

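Slc16a1, the monocarboxylate transporter MCT1, lay on opposite sides of both other libraries in 2 classes. In Ncx1-/- endocardial nuclei it was 1.64 times the Ncx1+/+ level and 1.29 times the Ncx1+/- level. In cardiomyocytes of that library it was 0.922 times the Ncx1+/+ level and 0.859 times the Ncx1+/- level. The counting intervals left out 1 in each case, and the difference between the classes was not tested, since each genotype has 1 library. Within the 9 cardiomyocyte clusters the ratio of Ncx1-/- to Ncx1+/+ for Slc16a1 ran from 0.787 to 1.49985 and was above 1 in 2. The direction in pooled cardiomyocytes thus did not hold in every cluster.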

How the results depend on the processing

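No paired analysis was possible because each genotype has 1 library. Over the alternatives run, members higher in Ncx1-/- numbered 12 to 18 in endocardial, 12 to 17 in mesenchyme-type and 2 to 7 in cardiomyocyte nuclei, and 0 were lower in these classes. No member that stood apart in endocardial nuclei or cardiomyocytes changed direction where a ratio could be computed. With cardiomyocyte RNA subtracted Slc2a1 and Pfkp gave none, though Slc2a1 was still counted as standing apart there, against a floor level. Ratios of members that did not stand apart crossed 1: in endocardial nuclei Eno3 from 1.19 to 0.683 with cardiomyocyte RNA subtracted (2.07 with equal weight for each sub-cluster), Mpc2 from 1.48 to 0.897 and Pdhb from 1.23 to 0.969 with equal weight for each sub-cluster, and Pfkm from 0.873 to 1.04 without the sub-cluster led by Grin2c. In cardiomyocytes Mpc1, Pdhb and Pdk3 lay between 0.925 and 1.07 over all alternatives. With a fold of 2 the count was 12 in endocardial nuclei, 2 in cardiomyocytes, 3 in epicardial and 1 in erythroid nuclei. Of all measured genes 1.49%, 1.12%, 0.576% and 3.57% were higher in these classes by that fold. Erythroid counts also fell to 3 at 2000 UMIs, to 2 without the doublet filter and to 3 at Leiden resolution 2.0. Of all genes measured under these settings 4.04%, 1.79% and 4.16% were higher. Lower erythroid members, 1 with the main settings (Pfkfb4), numbered 0 with a fold of 2, equal weight per nucleus, no doublet filter or resolution 2.0. In the epicardial class 1 member was lower in Ncx1+/- with TMM factors, with no count minimum and at resolution 2.0. The epicardial class gave no value with at least 1000 genes per nucleus or without the doublet filter, because no cluster was named epicardial there. Causes of these shifts were not tested. Of 856 member ratios recomputed, 110 moved beyond their counting interval, as did 283 of 972 isoform shares. Alternatives chosen after seeing the data left out the sub-cluster led by Grin2c, included mixed sub-clusters, weighted clusters equally, kept only the 4 cardiomyocyte clusters led by no marker of another class, or subtracted cardiomyocyte RNA; endocardial counts were then 16 or 17 and cardiomyocyte counts 5 or 7. Depth limits small classes: 10 members in mesenchyme-type, 15 in epicardial and 11 in erythroid nuclei were below the count minimum.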

Other observations

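Erythroid nuclei differed from the other classes in further pathway genes, named here after their values were seen. Of the 65 further genes, 21 were measured in erythroid nuclei, and 2 stood apart as higher and 2 as lower in Ncx1-/-. Of all genes measured there 5.2% were higher and 6.69% lower. Bpgm, which makes the haemoglobin regulator 2,3-bisphosphoglycerate, stood at 389, 337 and 121 CPM, with Ncx1-/- 3.22-fold (2.21 to 4.87) below Ncx1+/+. Pklr, the pyruvate kinase of liver and red cells, stood at 190.2, 182 and 95.9 CPM, with Ncx1-/- 1.98-fold (1.28 to 3.20) below Ncx1+/+. The Ncx1-/- values come from 100 nuclei in which cardiomyocyte markers reached 59.0% of their cardiomyocyte level, and the part of this in the difference was not tested.

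Of the unnamed clusters, 2 had high levels of single members. The one led by mitochondrial and heat-shock genes (249, 291 and 155 nuclei) had Gapdh at 2625, 2551 and 3618 CPM and Ldha at 1916, 1641 and 2596 CPM. The other, led by Ppp2r2b, Bnc2 and Lrp2 (77, 37 and 205 nuclei), had Slc2a3 at 938, 772 and 1248 CPM and Slc2a1 at 892, 1295 and 1139 CPM.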
